A study of Macaca mulatta with 2 samples.

Results

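The genes of the angiopoietin and TIE receptor pathway were examined cell type by cell type in the trabecular meshwork of the rhesus macaque, the porous tissue at the edge of the cornea that drains aqueous humour. The members were taken by name, and all 5 were found among the 24037 features of both matrices: the ligand genes ANGPT1 (ENSMMUG00000017745) and ANGPT2 (ENSMMUG00000010139), the matrix gene SVEP1 (ENSMMUG00000047960), and the receptor genes TEK (ENSMMUG00000006080) and TIE1 (ENSMMUG00000010660). The question was which cells held the messages of the ligands and which those of the receptors in each library.

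Angiopoietin 1 is a secreted agonist of the receptor tyrosine kinase TEK, and angiopoietin 2 binds the same receptor and can block or weakly activate it. TIE1 is a related receptor that pairs with TEK, and SVEP1 is a large secreted matrix protein that binds TIE1. In humans, variants of TEK, ANGPT1 and SVEP1 have been linked to primary congenital glaucoma, and in mice the pathway is needed to form Schlemm's canal, the vessel beside the meshwork that drains aqueous humour.

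The study had 1 single-cell RNA library labelled glaucoma and 1 labelled normal, the former from monkeys with spontaneous primary open-angle glaucoma and the latter from healthy controls, per the series' design text. Both came from trabecular meshwork tissue, with no treatment given in the labels, that was digested with collagenase and run on a droplet-based 3′ kit. The labels give neither the number of animals or eyes in a library nor their age, strain or eye pressure. With 1 library per diagnosis, effects of the diagnosis cannot be told apart from those of animal, dissection and preparation, and no test between the groups was possible.

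The glaucoma library held 10624 barcodes with 38765808 unique molecular identifiers (UMIs, each marking 1 captured RNA molecule) and the normal library 7028 barcodes with 25042621 UMIs, where the protocol aimed at 10000 cells for each. After filters, 8337 and 5385 cells were kept, with medians of 2751 and 2702 UMIs, and 11 of the kept barcodes occurred in both libraries. Clusters were named from marker genes and are called "-like" for that reason.

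Levels are given in CPM, the UMIs of a gene summed over the cells of a class for every 1000000 UMIs of that class, with an exact 95% Poisson interval in brackets. Intervals here reflect counting error alone; variation among animals is not in them. UMIs without matching gene lengths do not rank one gene against another, so levels are compared between cells within a gene.

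The meshwork marker genes had UMIs for 12 of 12 in the trabecular meshwork-like class of each library, at a summed 73260 and 61048 CPM. The same set stood at 41195 and 32128 in the stromal fibroblast-like class, so the border between these classes was not sharp. In the lymphatic endothelium-like class LYVE1 was at 0 in both libraries, and the class took its name from FLT4, CCL21 and MMRN1, while 7 markers of the vascular set counted in it as well. The class held 550 cells in the glaucoma and 33 in the normal library.

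ANGPT1 came mainly from the matrix-producing cells of the outflow tissue. Trabecular meshwork-like cells held 69.1% of its UMIs in the glaucoma and 60.2% in the normal library. Together with stromal fibroblast-like cells they held 88.2% and 87.7%, while these classes were 44.8% and 46.8% of the kept cells. In trabecular meshwork-like cells the level was 212 CPM [204, 220.2] in the glaucoma library, with a UMI in 45.6% of cells, and 466 [450.2, 482] in the normal library, with a UMI in 71.3%. The level in the normal library lay above that in the glaucoma library, and the intervals did not overlap.

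Stromal fibroblast-like cells came next, at 142 [131, 153] in the glaucoma and 278 [264, 292] in the normal library. Pericyte-like cells, the mural cells of small vessels, stood at 127 [103, 154] and 240.2 [207, 277]. In neither library did pericyte-like and stromal fibroblast-like cells differ beyond counting error. Muscle-like cells followed at 86.3 [76.4, 97.1] and 80.0 [72.5, 88.1], below pericyte-like cells in both libraries.

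Cells with the receptors had almost no ANGPT1. Vascular endothelium-like cells stood at 5.31 CPM [2.43, 10.1] from 9 UMIs in the glaucoma library and at 5.34 [1.101, 15.6] from 3 UMIs in the normal library. Lymphatic endothelium-like cells had 13 UMIs (6.46 CPM) and 0 UMIs. When the cells of both endothelial classes were clustered again, 13 of their 22 glaucoma UMIs fell in 4 of the 20 glaucoma cells of a subcluster whose leading genes included DCN, MYOC and COL1A2, genes of fibroblasts and meshwork. The other compared classes had 2 to 10 ANGPT1 UMIs in each library, except myelinating Schwann cell-like cells of the normal library, with 30 UMIs, 16 of them in 1 barcode. The share of cells with a UMI in T or NK cell-like cells, which should lack the gene, was 1.88% and 2.65% at median depths of 1349 and 1744 UMIs, against 5490 and 7300 in trabecular meshwork-like cells. With every cell thinned to 1000 UMIs those shares were 0.664% and 0.917%, against 16.3% and 32.0% in trabecular meshwork-like cells. Thinning left out 18 and 21 shallower meshwork cells and 19 and 4 T or NK cells.

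**Figure D1:**
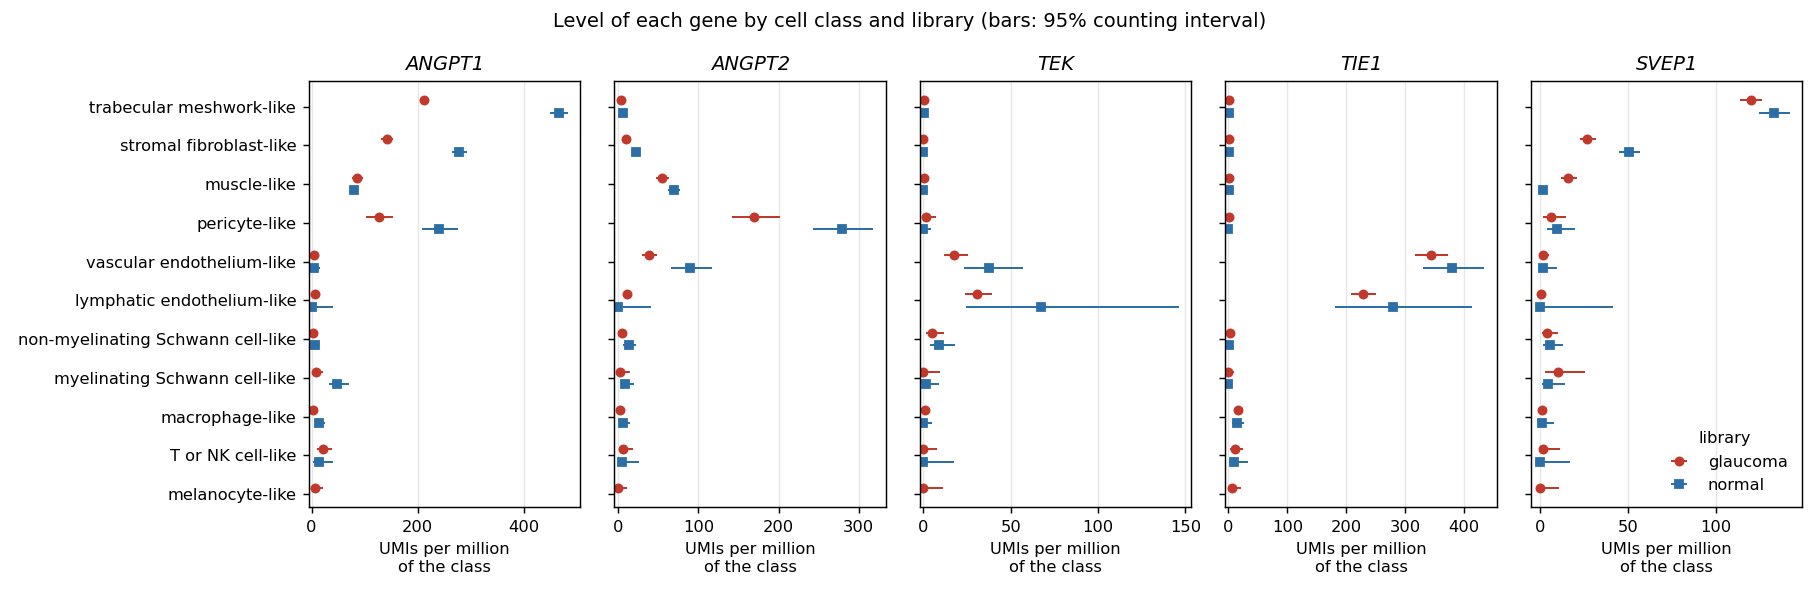
Levels of the 5 genes in each cell class, in CPM on linear axes that differ between panels, with circles for the glaucoma library, squares for the normal library and bars for the exact 95% counting interval (1 library per group; classes with at least 20 cells). ANGPT1 and SVEP1 were highest in trabecular meshwork-like cells (212 and 466, 120 and 133), ANGPT2 in pericyte-like cells, and TEK and TIE1 in the endothelial classes.

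ANGPT1 in trabecular meshwork-like cells was the member that met the rule for a called difference with most UMIs behind it. The rule required that the ratio of the glaucoma over the normal library was at least 2-fold and its exact interval excluded 1, in classes with at least 50 cells in each library and with at least 100 UMIs over both. The log2 ratio was -1.14 [-1.21, -1.06], and of the 8476 genes tested in this class 5.82% were called lower and 5.31% higher. Which clusters made up the class differed between the libraries, and ANGPT1 differed strongly between those clusters.

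Cluster 9, led by PLA2G2A, CHI3L1, ANGPTL7 and CHAD among others, held 173 glaucoma cells and 517 normal cells. Its ANGPT1 level was 540.2 CPM [502.5, 580.0] in the glaucoma and 571 [549, 593] in the normal library. Within this cluster the log2 ratio was -0.08 [-0.20, 0.04], so a difference of 2-fold lay outside its interval.

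Cluster 8, led by MGARP, WIF1 and BMP3 among others, held 663 glaucoma cells and 28 normal cells and had the least ANGPT1 of the class in the glaucoma library. Its levels were 59.9 and 120 CPM, a log2 ratio of -1.01 [-1.60, -0.36] that rests on 26 UMIs in the normal library. Cluster 9 exceeded cluster 8 in ANGPT1 by 9.02-fold in the glaucoma library and by 4.74-fold in the normal library. Cluster 2, with 946 and 142 cells, stood between them at 239.6 and 392.4 (-0.71 [-0.88, -0.54]). Clusters 16 and 18 had log2 ratios of 0.14 and 0.23, with intervals that included 0.

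When each cluster was given the same weight in both libraries, the log2 ratio of the class was -0.28, which is no longer a call. The call was also lost over every deposited barcode (-0.94), under a stricter cell filter (-0.93), with the 5 genes allowed among the clustering genes (-0.91) and at a finer clustering (-0.74). The summed level of the muscle marker genes in the class was 5200 CPM in the glaucoma and 2499 in the normal library, with 8 of 8 markers detected in both. The stromal fibroblast markers stood at 2627 and 3494 with 10 of 10 detected, and the part of either in the ANGPT1 difference was not tested.

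**Figure D2:**
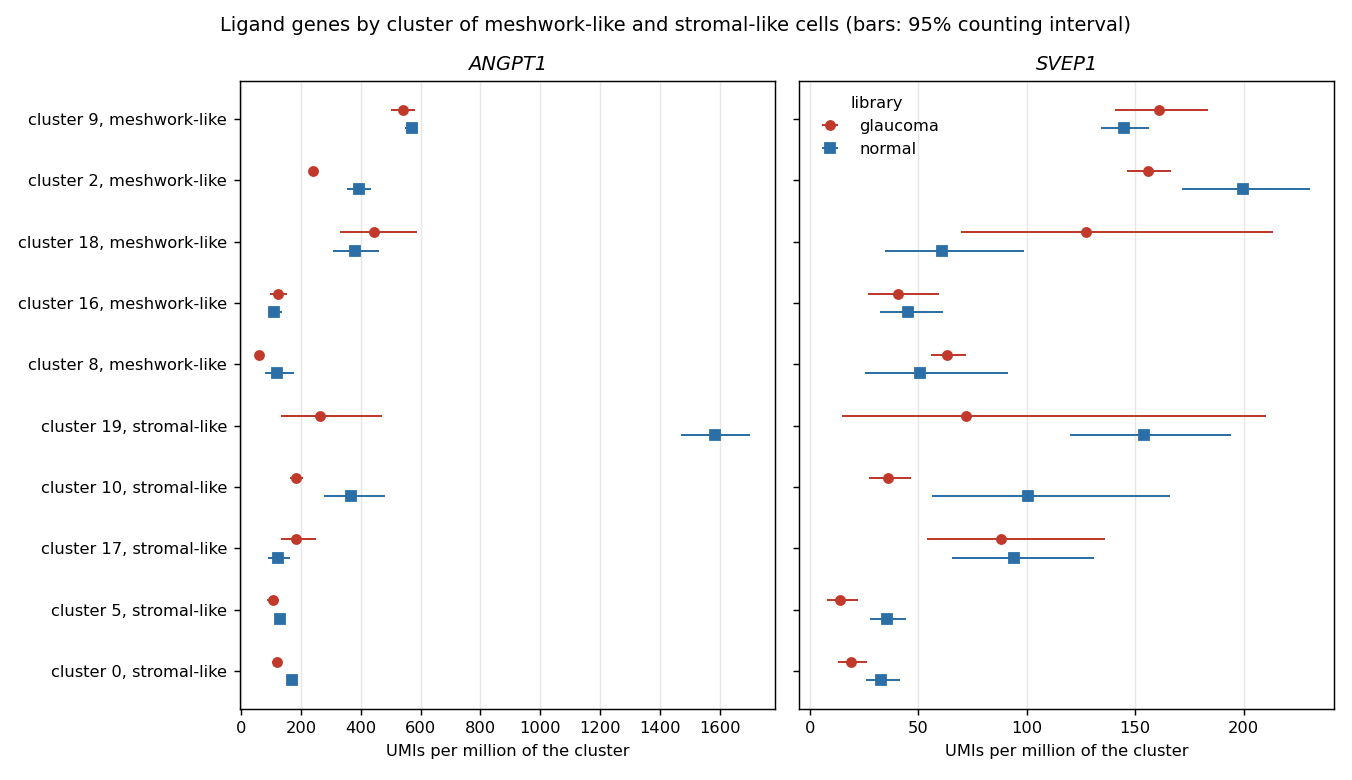
ANGPT1 and SVEP1 in the clusters of trabecular meshwork-like and stromal fibroblast-like cells, in CPM on linear axes, with circles for the glaucoma library, squares for the normal library and bars for the 95% counting interval. In cluster 9 the libraries lie close together for ANGPT1 (540.2 and 571), while cluster 19 of the normal library stands apart at 1584.

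Stromal fibroblast-like cells had an ANGPT1 log2 ratio of -0.97 [-1.10, -0.84], just short of a call. It passed 2-fold with doublets kept (-1.11), over every barcode (-1.46), under the stricter cell filter (-1.07), with members among the clustering genes (-1.49) and at the finer clustering (-1.20). Cluster 19, led by EGFL6, PI16 and FBLN1 among others, held 132 normal cells with 731 ANGPT1 UMIs, a level of 1584 CPM, and 23 glaucoma cells with 11 UMIs, a level of 264. These 132 cells were 2.45% of the kept cells of the normal library and held 13.6% of its ANGPT1 UMIs. The normal cells of cluster 19 exceeded those of cluster 9 in ANGPT1 by 2.78-fold, whereas the glaucoma cells of cluster 19 were lower than those of cluster 9, with a log2 ratio of -1.04 [-2.04, -0.19]. Without cluster 19 the log2 ratio of stromal fibroblast-like cells was -0.13. Cluster 10, led by WIF1, CCL26 and ITGBL1 among others, was 30.2% of the class in the glaucoma and 3.98% in the normal library and had ANGPT1 at 184 and 369 CPM (-1.01 [-1.42, -0.56]). Weighting the clusters alike gave a ratio of -0.90 for the class. In the largest stromal cluster, 0, ANGPT1 stood at 120 and 169 (-0.50 [-0.74, -0.25]).

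Pericyte-like cells formed 1 cluster, and their ANGPT1 was lower in the glaucoma library by a log2 ratio of -0.92 [-1.28, -0.57], which falls short of 2-fold. Their median depth was 1434.5 UMIs in the glaucoma and 2278 in the normal library. Under the stricter cell filter the ratio was -0.56. For muscle-like cells the ratio was 0.11 [-0.12, 0.33], with -0.51 over every barcode and -0.23 with the same cluster weights, so its sign changed with the processing.

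ANGPT2 came mainly from pericyte-like and muscle-like cells, and less from endothelium. Pericyte-like cells had the highest level of the named classes, 170.0 CPM [142, 201] in the glaucoma library, with a UMI in 21.0% of cells, and 279 [244, 318] in the normal library, with a UMI in 39.2%. They exceeded vascular endothelium-like cells by 4.502-fold and 3.13-fold. The normal library was higher in pericyte-like cells (log2 ratio -0.72 [-1.04, -0.40]), again short of 2-fold. The vascular marker genes summed to 538 and 472 CPM in pericyte-like cells, against 9430 and 8260 in vascular endothelium-like cells.

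Muscle-like cells held the largest source share of ANGPT2, 33.7% of the UMIs in the glaucoma and 43.8% in the normal library, against 25.8% and 27.0% for pericyte-like cells. Nearly all of it lay in cluster 7, led by RERGL, ACTG2 and PLN among others. That cluster stood at 176.5 CPM [151, 205] from 171 UMIs and 280.0 [251, 311] from 352 UMIs. Cluster 3, led by MYH11, CHRM3 and ATP2A1 among others, had 4 and 9 UMIs, a level of 2.42 and 2.35.

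Between these muscle clusters the difference was 72.9-fold in the glaucoma and 119-fold in the normal library. Against pericyte-like cells, cluster 7 had a log2 ratio of 0.05 [-0.28, 0.39] and 0.01 [-0.24, 0.25], so a 2-fold difference lay outside both intervals. ANGPT1 followed the same split to a lesser degree, at 165 and 237 in cluster 7 and 35.7 and 28.4 in cluster 3. Within cluster 7 both ligand genes were lower in the glaucoma library, ANGPT1 by a log2 ratio of -0.52 [-0.81, -0.24] and ANGPT2 by -0.67 [-0.94, -0.40]. The class as a whole gave -0.34 [-0.61, -0.07] for ANGPT2.

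**Figure D3:**
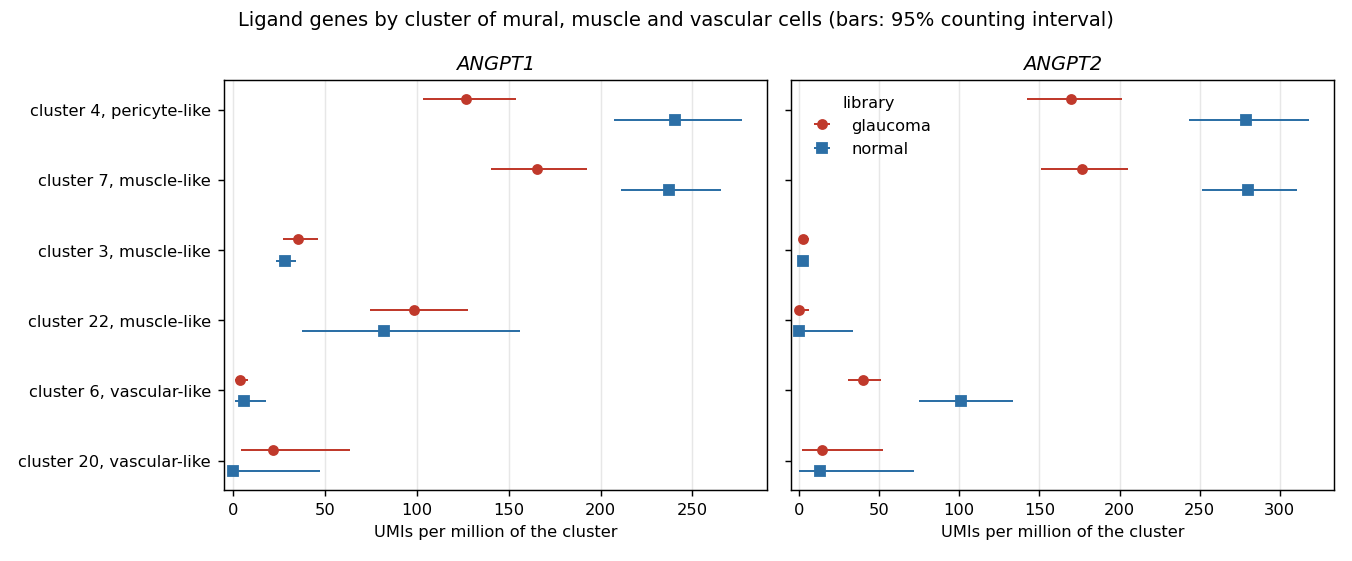
ANGPT1 and ANGPT2 in the clusters of pericyte-like, muscle-like and vascular endothelium-like cells, in CPM on linear axes, with circles for the glaucoma library, squares for the normal library and bars for the 95% counting interval. Clusters 4 and 7 hold both ligand genes at similar ANGPT2 levels (170.0 and 176.5 for glaucoma, 279 and 280.0 for normal), and cluster 3 is near 0 for ANGPT2.

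In vascular endothelium-like cells, where ANGPT2 is known as a gene of activated endothelium, the level was 37.8 CPM [29.1, 48.2] from 64 UMIs in the glaucoma library and 89.0 [66.1, 117] from 50 UMIs in the normal library. The log2 ratio of -1.24 [-1.79, -0.67] was called lower, where 1.56% of 3648 genes were. A few cells set these values. In the normal library 3 of 296 cells had at least 3 ANGPT2 UMIs and held 60.0% of them, and in the glaucoma library 5 of 611 cells held 37.5%. The share of cells with a UMI was 6.55% and 6.08%. The mean over cells gave -0.63, which is no call, and without the richest barcode of each library the ratio was -1.004. All kept cells with at least 2 of 4 endothelial marker genes gave -0.83, no call. With endothelial cells clustered again, subcluster 3 held 43 of the normal UMIs (150.9 CPM, against 19.9 for glaucoma). Subcluster 4, with 185 glaucoma cells and 1 normal cell, held 37 glaucoma UMIs. Subcluster 1 stood at 39.8 CPM from 14 glaucoma UMIs and at 10.8 from 1 normal UMI, with overlapping intervals. Subclusters 5 and 6 had 2 and 3 glaucoma UMIs and 1 normal UMI each, and their intervals overlapped too. Subcluster 9 had 0 UMIs in 7 glaucoma cells and 4 in 12 normal cells, again with overlapping intervals. Its leading genes included COX4I2, NDUFA4L2, PDGFRB and KCNJ8, which are in the pericyte marker set. The part of this make-up in the ratio was not tested. Lymphatic endothelium-like cells had 21 UMIs (10.4 CPM) in the glaucoma library and 0 UMIs in the 33 normal cells, which allows up to 33.6 CPM.

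Stromal fibroblast-like cells had little ANGPT2, 9.93 CPM from 49 UMIs and 22.2 from 118 UMIs, and were called lower in the glaucoma library (-1.16 [-1.67, -0.67]), as were 6.03% of 7714 genes in that class. The call was lost with doublets kept (-0.88), over every barcode (-0.97), with members among the clustering genes (-0.93), at the finer clustering (-0.87), as a mean over cells (-0.92) and with the same cluster weights (-0.79), while the stricter cell filter gave -1.73. Trabecular meshwork-like cells were lower still, at 3.42 and 6.18, which is 49.7-fold and 45.1-fold below pericyte-like cells.

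SVEP1 was the member most concentrated in the meshwork. Trabecular meshwork-like cells held 87.5% of its UMIs in the glaucoma and 75.6% in the normal library, and with stromal fibroblast-like cells 95.6% and 97.6%. The level in trabecular meshwork-like cells was 120 CPM [114, 126] from 1437 UMIs, with a UMI in 39.0% of cells, and 133 [124, 142] from 924 UMIs, with a UMI in 44.6%. Stromal fibroblast-like cells stood at 26.9 [22.6, 31.9] and 50.5 [44.7, 57.0]. Endothelium held next to none: the vascular and lymphatic classes together had 4 of 1643 UMIs and 1 of 1222.

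Between the libraries SVEP1 in trabecular meshwork-like cells differed little, with a log2 ratio of -0.15 [-0.27, -0.03]. The same comparison gave 0.06 under the stricter cell filter and -0.43 as a mean over cells, so neither direction held throughout. In cluster 9 the levels were 161 and 145 (0.15 [-0.07, 0.37]) and in cluster 2 they were 156 and 199.5 (-0.36 [-0.59, -0.12]). Unlike ANGPT1, SVEP1 was at similar levels in clusters 2 and 9 of the glaucoma library (log2 ratio of cluster 9 over 2 of 0.05 [-0.17, 0.26]), while in the normal library cluster 9 was the lower (-0.46 [-0.70, -0.22]). Cluster 8 was again low, at 63.4 and 50.95.

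In stromal fibroblast-like cells SVEP1 had a log2 ratio of -0.91 [-1.22, -0.60], short of a call. It passed 2-fold over every barcode (-1.22), as a mean over cells (-1.26) and with the same cluster weights (-1.04), and was -0.42 with separate clustering and -0.48 at the finer clustering. Cluster 19 was high for this gene too, at 154 CPM in the normal library, but had 3 UMIs in the glaucoma library. Of the 51 SVEP1 UMIs in muscle-like cells of the glaucoma library, 47 lay in cluster 22, led by ACTA2, CNN1 and CCK among others. The summed meshwork markers of the muscle-like class were 9478 CPM in the glaucoma and 3173 in the normal library, and their part in the SVEP1 UMIs of that class was not tested.

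Over the pooled clusters of the meshwork class, SVEP1 was found more often in cells with an ANGPT1 UMI than in those without. With cells thinned to 1000 UMIs, 13.6% [9.99, 17.8] of glaucoma trabecular meshwork-like cells with an ANGPT1 UMI also had a SVEP1 UMI, against 9.25% [7.89, 10.8] of those without. The normal library gave 19.2% [14.8, 24.3] and 7.89% [5.88, 10.3]. These intervals were apart in the normal library and overlapped in the glaucoma library. At the deposited depth the shares were 51.1% and 28.9% in glaucoma cells and 53.1% and 23.6% in normal cells, where cells with ANGPT1 were also deeper (medians of 6546 and 4901 UMIs, and of 8678 and 3248). The pooled meshwork clusters differed in both genes. In the glaucoma library cluster 8 had ANGPT1 at 59.9 and SVEP1 at 63.4 CPM, and cluster 9 had them at 540.2 and 161. Whether the 2 genes were found together within single meshwork clusters was not tested. For the ligand pair in pericyte-like cells, an ANGPT2 UMI was found in 30.4% [18.8, 44.1] of thinned glaucoma cells with ANGPT1 and in 13.4% [10.1, 17.3] of those without, and in 36.8% [24.5, 50.7] and 17.7% [13.1, 23.2] of normal cells, with 95 and 35 shallower cells left out. At the deposited depth the corresponding ANGPT2 shares were 31.8% and 18.8%, and 46.7% and 34.8%.

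**Figure D4:**
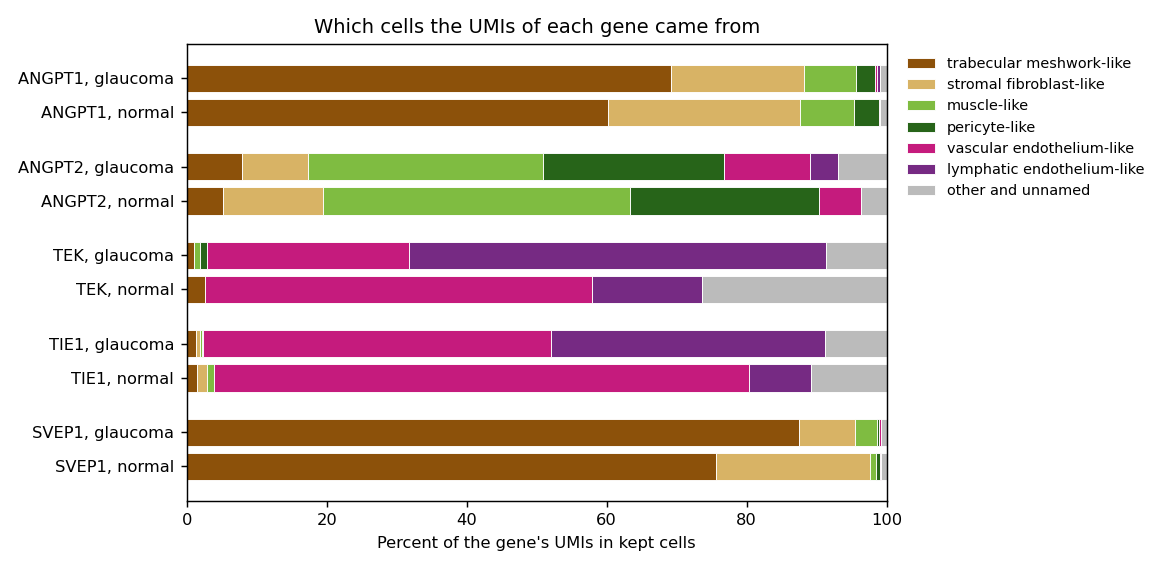
Share of each gene's UMIs in kept cells that came from each cell class, in percent, 1 bar per gene and library. Trabecular meshwork-like and stromal fibroblast-like cells fill 88.2% and 87.7% of the ANGPT1 bars and 95.6% and 97.6% of the SVEP1 bars, while the endothelial classes fill 88.8% and 85.3% of the TIE1 bars and 88.5% and 71.1% of the TEK bars.

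TIE1 marked the endothelium. Vascular endothelium-like cells held 49.7% of its UMIs in the glaucoma and 76.3% in the normal library, and lymphatic endothelium-like cells 39.1% and 8.96%. The level in vascular endothelium-like cells was 344 CPM [317, 373] from 583 UMIs, with a UMI in 56.8% of cells, and 379 [330.0, 434] from 213 UMIs, with a UMI in 44.3%. The log2 ratio was -0.14 [-0.37, 0.09]. At 1000 UMIs per cell the shares were 31.6% and 31.0%, with 45 and 80 shallower cells left out. Over all kept cells with at least 2 of 4 endothelial marker genes the ratio was 0.66. That is a different set of cells, which takes in lymphatic endothelium-like and other cells. Only 87.3% of its glaucoma and 70.6% of its normal cells lay in endothelial clusters.

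Lymphatic endothelium-like cells had less TIE1 than vascular endothelium-like cells in the glaucoma library, 228 CPM [208, 249.9] (log2 ratio -0.59 [-0.77, -0.41]). In the normal library they stood at 279.8 [181, 413] from 25 UMIs, and the difference of -0.44 [-1.10, 0.16] was not detectable at this depth. The endothelial cells were clustered again. In the subcluster with 5 arterial marker genes (GJA4, GJA5, HEY1, FBLN5 and BMX), TIE1 was 283 [198, 391] and 303 [196, 447]. Another subcluster, with GJA4, HEY1 and FBLN5 of these genes, stood at 344 [254, 457] and 391 [266, 555]. The 2 subclusters led by SRARP, GPIHBP1 and VWF among others were at 386 [324, 457] and 388 [272, 537] and at 373 [316, 438] and 414 [343, 496]. In each library their intervals overlapped those of both subclusters with arterial markers. Subcluster 4 was at 317 in its 185 glaucoma cells.

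In the named classes outside the endothelium TIE1 was low. The unnamed clusters were not, at 145 and 178, with all 49 and 17 of their UMIs in cluster 23, which held 8 pericyte and 7 vascular markers. Macrophage-like cells had 45 UMIs (16.9 CPM [12.3, 22.6]) and 10 UMIs (14 [6.71, 25.7]). That exceeded trabecular meshwork-like cells, at 1.33 and 0.575, by 12.7-fold and 24.3-fold.

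Of the 39 glaucoma macrophage-like cells with a TIE1 UMI, 5 had UMIs of at least 2 of the endothelial genes PECAM1, CDH5, EGFL7 and CLDN5 (12.8%, against 3.87% of the cells without TIE1), and in the normal library 1 of 8. In macrophage-like cells as a whole all 9 vascular markers were detected in the glaucoma and 6 of 9 in the normal library, at a summed 188 and 132 CPM, against 9430 and 8260 in vascular endothelium-like cells. The part of free RNA or of attached endothelial cells in these TIE1 UMIs was not tested.

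TEK, the receptor of both angiopoietins, was sparse: 104 UMIs in the kept cells of the glaucoma library and 38 in those of the normal library. In the glaucoma library 62 UMIs lay in lymphatic endothelium-like cells (30.8 CPM [23.6, 39.5], a UMI in 9.64% of cells) and 30 in vascular endothelium-like cells (17.7 [11.9, 25.3], 4.91% of cells). In the normal library 6 lay in lymphatic endothelium-like cells (67.2 [24.6, 146]), while 21 were in vascular endothelium-like cells (37.4 [23.1, 57.1], 6.76% of cells). Lymphatic exceeded vascular endothelium-like cells by a log2 ratio of 0.80 [0.15, 1.48] in the glaucoma and 0.85 [-0.75, 2.20] in the normal library, where the interval includes 0.

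TEK and TIE1 thus ordered the endothelial classes in opposite ways in the glaucoma library. For each 100 TIE1 UMIs there were 13.5 TEK UMIs [10.2, 17.6] in lymphatic endothelium-like cells, compared with 5.15 [3.44, 7.43] in vascular endothelium-like cells, intervals that do not overlap. In the normal library the values were 24.0 [8.05, 59.9] and 9.86 [5.98, 15.5], and these intervals do overlap. No class reached 100 TEK UMIs, so no call between the libraries was made. The log2 ratio in vascular endothelium-like cells was -1.08 [-1.93, -0.20] and in the lymphatic class, from 6 normal UMIs, -1.12 [-2.33, 0.38].

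The main ANGPT1-bearing cells had almost no TEK UMIs. Trabecular meshwork-like cells had 1 TEK UMI among 1967 glaucoma cells and 1 among 915 normal cells, and stromal fibroblast-like cells had none in 1767 and 1607 cells, which allows a share of cells with a TEK UMI of up to 0.170% and 0.187%. This limits detection, not the share of cells that express TEK, since even vascular endothelium-like cells had a TEK UMI in 4.91% and 6.76% of cells. Non-myelinating Schwann cell-like cells were the only other class with more than 3 TEK UMIs in either library, 5 UMIs (5.11 CPM [1.66, 11.9]) and 8 UMIs (9.18 [3.96, 18.1]). None of the 5 and none of the 8 cells had UMIs of 2 or more of the 4 endothelial genes, and their shares of 0.572% and 1.39% stood above the 0.0508% and 0.109% of the deeper trabecular meshwork-like cells. The TEK level of Schwann cell-like cells rests on 13 cells over both libraries.

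Over all kept cells, TIE1 was called higher and both angiopoietin genes lower in the glaucoma library, TEK lay just short of 2-fold, and the make-up of the libraries differed as well. Fewer cells of a type and less RNA per cell cannot be told apart in such sums. TIE1 stood at 39.1 CPM of all kept cells in the glaucoma and 12.9 in the normal library, a log2 ratio of 1.60 [1.41, 1.797] that was called higher, as were 5.94% of 11160 genes. With the same class shares in both libraries it was -0.15. TEK had a ratio of 0.98 [0.44, 1.56], which is no call, and one of -0.99 with the same class shares. That last value has no interval. On the normal side it draws on the lymphatic endothelium-like level of 67.2 CPM, which rests on 6 UMIs in 33 cells. Lymphatic and vascular endothelium-like cells together were 13.9% of glaucoma cells and 6.11% of normal cells. Within vascular endothelium-like cells the ratios were -0.14 for TIE1 and -1.08 for TEK. In all kept cells with at least 2 of 4 endothelial marker genes, TIE1 had a ratio of 0.66. TEK stood there at 20.6 CPM in the glaucoma and 15.5 in the normal library. Of these cells, 87.3% of the glaucoma and 70.6% of the normal ones lay in endothelial clusters.

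ANGPT1 over all kept cells was called lower (-1.02 [-1.08, -0.96], at 122 and 248 CPM), as were 6.75% of genes, and stayed at -0.99 with the same class shares but at -0.46 with the same cluster shares. ANGPT2 was called lower as well (-1.13 [-1.30, -0.97], at 17.3 and 38.0), with -0.66 and -0.76 at the same class and cluster shares. For SVEP1 the ratio was -0.04 [-0.15, 0.07], with -0.19 and -0.17.

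**Figure D5:**
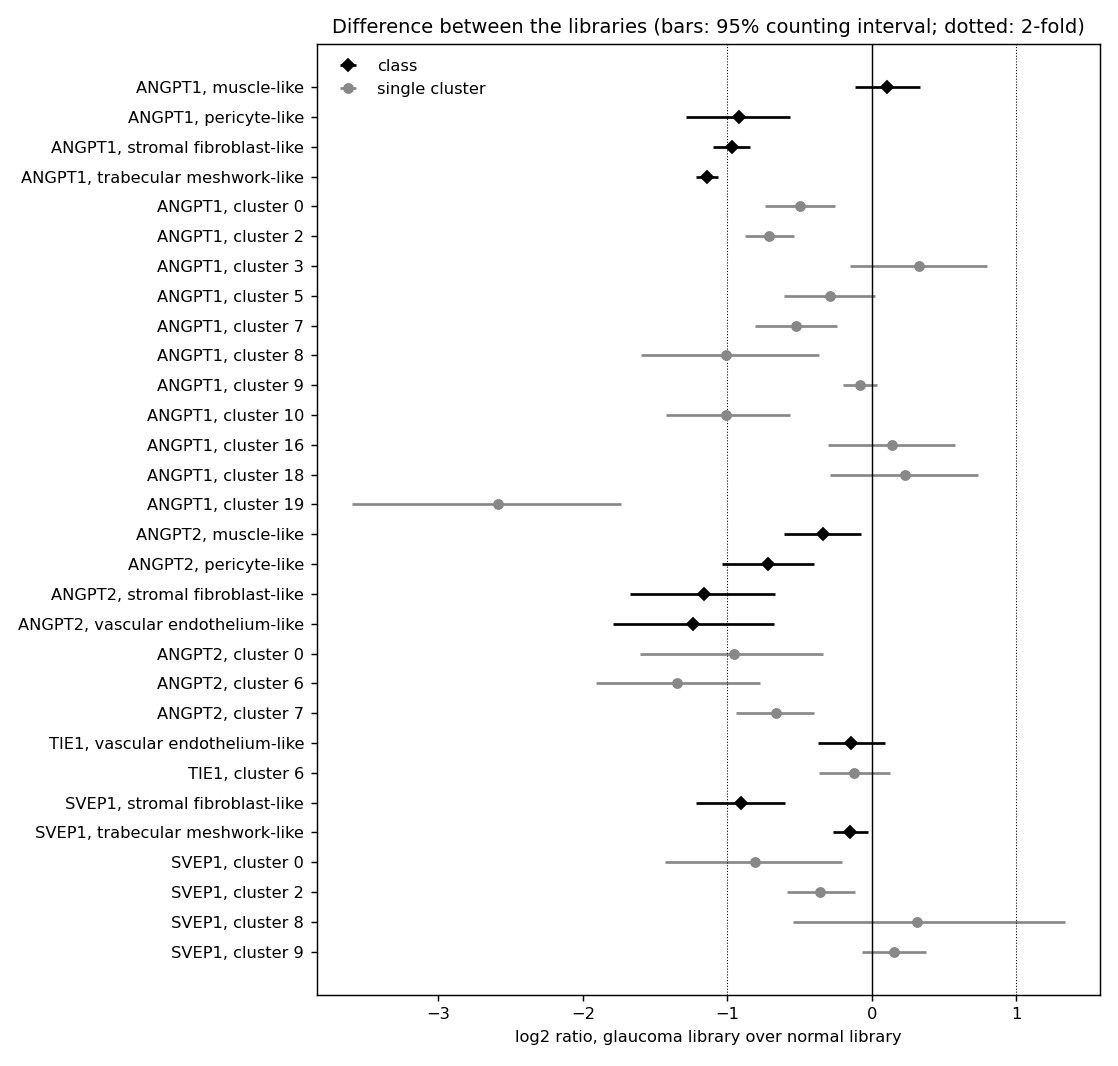
Log2 ratio of the glaucoma over the normal library for each gene with at least 100 UMIs in a class compared (diamonds) and in single clusters of classes that hold several clusters (grey circles; at least 20 cells in each library and 100 UMIs), with bars for the exact 95% counting interval and dotted lines at 2-fold. ANGPT1 in trabecular meshwork-like cells lies at -1.14 but in cluster 9 at -0.08, and TIE1 in vascular endothelium-like cells lies at -0.14.

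Other genes of the pathway were followed as 6 lists. In trabecular meshwork-like cells 11.1% of the 8476 genes tested were called in either direction. Of 15 measured signal carriers downstream of TEK, 1 was called higher, 2 were called lower and 12 lay between, with a median log2 ratio of -0.29 beside -0.02 over all genes tested. GRB14, an adaptor of receptor tyrosine kinases, was at 116 and 31.8 CPM (1.87 [1.67, 2.08]), but gave -0.46 at equal cluster weights and was lower in 4 of 5 clusters. FOXO3, a forkhead transcription factor, was at 89.3 and 234.7 (-1.39 [-1.51, -1.28]) and was lower in all 5 clusters. PAK1, a kinase of the cytoskeleton, rested on 39 and 81 UMIs (-1.84) and gave -0.70 at equal cluster weights.

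FOXO3 was not particular to the meshwork. It was also called lower in stromal fibroblast-like (-1.54), pericyte-like (-1.40), macrophage-like (-1.33) and both Schwann cell-like classes (myelinating -1.22, non-myelinating -1.03). In these classes 6.03%, 4.94%, 5.6%, 5% and 5.33% of the genes tested were called lower. FOXO3 lay between in vascular endothelium-like cells, at -0.63, and in muscle-like cells, at -0.72. Among the VEGF ligands and receptors in trabecular meshwork-like cells, 1 of 6 measured was called lower, the receptor KDR, from 42 and 61 UMIs (-1.32), with -0.52 at the same cluster weights. No gene was called among the other TIE regulators (1 measured, TNIP2 at 0.19; PTPRB, the phosphatase that dampens TEK signalling, had 52 and 29 UMIs), the integrins (3 measured), the angiopoietin-like genes (2 measured) or the mural recruitment genes (4 measured) of this class. ITGB1, a shared subunit of matrix receptors, stood at 492 and 481 CPM, and ITGB5 had a log2 ratio of -0.65 [-0.99, -0.30]. ANGPTL7, a secreted meshwork protein, stood at 464 and 744 (-0.68 [-0.74, -0.63]), and ANGPTL2 at levels that differed little (-0.01 [-0.30, 0.29]). PDGFRB, the mural cells' receptor for platelet-derived growth factor, stood at 125 and 160.2 (-0.35) and the Notch ligand gene JAG1 at 54.9 and 72.9 (-0.41).

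In the other ligand-bearing classes the same lists were counted too. Stromal fibroblast-like cells had 6 calls among 32 measured genes, where 8.78% of all genes tested were called. Among them GRB14 was higher (2.35, but -0.76 at equal cluster weights), and FOXO3, KDR (-1.44), FOXO1 (-1.20) and PIK3CB, a catalytic subunit of PI3 kinase (-1.09), were lower. Pericyte-like cells had 2 calls among 14 measured genes, FOXO3 and PIK3R1, the regulatory subunit of PI3 kinase (-1.10), where 7.42% of all genes were called. Muscle-like cells had 3 calls among 23 measured genes, where 7.19% of all genes were called. Among them were KDR (-2.06) and ANGPTL7, which was higher (2.15) but gave -0.58 at equal cluster weights.

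In vascular endothelium-like cells 3.34% of the 3648 genes tested were called. Of 24 measured genes of the lists, 1 was called, FLT4, the receptor of VEGF-C, at 51.9 and 119 CPM (-1.20 [-1.68, -0.72]). PTPRB was at 111 and 219 and lay just short of 2-fold (-0.97 [-1.31, -0.63]), while TNIP2 was at -0.04. All 10 measured signal carriers lay between, with a median of -0.43 beside -0.09 over all genes. NOS3, the endothelial nitric oxide synthase, was at 364 and 459 (-0.34 [-0.55, -0.12]), and SHC1, an adaptor, at 386 and 377.

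Among mural recruitment genes S1PR1 and JAG1 were at 452 and 691 and at 432 and 699.6, with log2 ratios of -0.61 and -0.69. ITGB1 (-0.44) and ITGA5 (-0.04) were the measured integrins, and none of the angiopoietin-like genes reached 100 UMIs. ANGPTL4 and ANGPTL2 had the most UMIs of that list, 25 and 4 and 10 and 2.

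With 33 normal cells, lymphatic endothelium-like cells were under the minimum for a call between the libraries. In their 550 glaucoma cells PTPRB stood at 100.4 CPM and TNIP2 at 100.4, SHC1 at 228 and GRB2, another adaptor, at 142. NRP2, a co-receptor of VEGF-C, stood at 362 and PGF, a placental growth factor, at 307. ITGB1 was at 1112 and ITGA5 at 118, ANGPTL2 at 83.5 and ANGPTL4 at 18.4, and S1PR1 at 254 and TGFB1 at 129.7.

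Genes whose pattern was most like each member were ranked by Pearson correlation of log2 levels, with 10 added, over 18 points, the 9 compared classes in both libraries. The points share libraries and depth, the 9395 genes considered were not independent, and the values are a description. Among the genes closest to ANGPT1 were ADAMTS12 (r = 0.94), TMEM119, C2orf40 and PCOLCE, and SVEP1 was closest to ANGPTL7 (0.98), FMOD, SNAP91, DDAH1 and FAM133A. ANGPT2 was closest to GJA4 (0.95), NPY1R, PGF, C2CD2 and HEY2. TEK was closest to GJA5 (0.98), AFAP1L1, ARAP3, MYRIP and BAALC, and TIE1 to PCDH12 (0.99), PECAM1, ITGA5, EXOC6 and ZNF366. ANGPTL7 and FMOD belong to the meshwork marker set and PECAM1 to the vascular one. Classes were named from these sets, so likeness to those genes is not independent of the naming. The 9 classes leave out lymphatic endothelium-like cells, which held 62 of the 104 glaucoma TEK UMIs. For TEK the endothelium therefore enters only through the 30 and 21 UMIs of vascular endothelium-like cells. The genes considered needed at least 200 UMIs, which TEK itself, with 104 and 38, did not reach.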

How the data were processed

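The deposited values were counts: whole numbers of UMIs per gene and barcode, 1 matrix per library, made by the authors with Cell Ranger (6.0.0 per the file headers, while the submitters' processing notes list Cell Ranger 4.0 and Seurat 3.0). How barcodes were chosen, the genome build and the annotation are not given in the sources used here. Of 24037 features, 15580 had a symbol in the files and 873 took one from a table of gene names. No genome or sequence table was used here, so no coordinates or sequences are given.

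Cells needed at least 500 genes and under 20% mitochondrial UMIs, and Scrublet's doublet calls (296 and 45 cells, 3.43% and 0.829%) were removed. Both libraries were clustered together with scanpy 1.11.5 and igraph 0.11.9 in Python 3.11.15: 10000 UMIs per cell, log transformation, 2000 variable genes without the 5 members, 30 principal components, 15 neighbours and Leiden resolution 1, seed 1, giving 28 clusters. Naming used 19 marker sets: the set with most markers counted gave the name, at least 3 being needed. Where that set was the vascular or the lymphatic one, at least 3 lymphatic markers gave the lymphatic name, even beside more vascular markers. Clusters with mixed leading genes stayed unnamed. Endothelial cells were clustered again (1000 variable genes, 15 components, resolution 0.8). Kept cells held 30011671 and 21696437 UMIs.

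Levels are summed UMIs in CPM with exact Poisson intervals, shares have exact (Clopper-Pearson) binomial intervals, and log2 ratios have exact conditional binomial intervals, all from scipy 1.17.1. Of these, the log2 ratio with its interval and its call was tested on simulated data. The simulated counts were independent Poisson draws, the model behind the interval. They do not show how the interval performs where few cells hold many of the UMIs. At a count of 0, 3 counts set the upper limit. With 1 library per group there is no p-value. Named were the 5 members everywhere and, from each list in the meshwork and endothelial classes, the called genes and otherwise the 2 with most UMIs; list genes of other classes, clusters and subclusters were described after their values were seen. Some genes that the rule names are not reported here. The members, lists and marker sets were chosen with earlier results of these data known. Alternatives were no doublet removal, no or a stricter cell filter, members among the clustering genes, separate clustering, resolution 2, means over cells, thinning, the same cluster weights, leaving out the richest barcode, endothelium chosen by marker genes and no UMI minimum.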

Additional observations from a re-analysis of the deposited data

How the results depend on the processing

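No paired analysis was possible because each group had 1 library. Across the alternatives the log2 ratios within classes kept their sign in 117 of 126 values and those over all kept cells in 15 of 15. Dropping the UMI minimum cannot change a ratio, nor can equal cluster weights in pericyte-like cells, which formed 1 cluster. Those values are among the 117 and kept their sign by construction. The cause of the shifts below was not tested. ANGPT1 in trabecular meshwork-like cells moved to -0.94 over every deposited barcode, -0.93 with the stricter filter, -0.91 with members among the variable genes, -0.74 at resolution 2, -1.22 as a mean over cells and -0.28 with the same cluster weights. ANGPT1 in stromal fibroblast-like cells was -1.11 with doublets kept, -1.46 over every barcode, -1.49 with members among the variable genes, -0.81 with separate clustering, -1.20 at resolution 2 and, chosen after seeing the data, -0.13 without cluster 19. ANGPT2 in muscle-like cells was -1.40 over every barcode, -0.65 with the same cluster weights and, also chosen later, -0.67 in cluster 7 alone. SVEP1 in trabecular meshwork-like cells was 0.0624 with the stricter filter, 0.0155 with members among the variable genes, 0.0221 at resolution 2, -0.43 as a mean over cells and -0.33 in thinned cells. TIE1 was 0.66 when vascular endothelium-like cells were replaced by all kept cells with at least 2 of 4 endothelial marker genes. That set takes in lymphatic endothelium-like cells, and 87.3% of its glaucoma and 70.6% of its normal cells lay in endothelial clusters. Over all kept cells ANGPT1 was -1.09 over every barcode and -1.10 with the stricter filter, under which ANGPT2 was -1.61 and TEK 1.57. With no UMI minimum the calls among measured list genes were 9 of 57 in trabecular meshwork-like and 2 of 50 in vascular endothelium-like cells. They were 4 of 49 in pericyte-like and 8 of 54 in muscle-like cells. The main setting had 4 of 31, 1 of 24, 2 of 14 and 3 of 23 in these classes. The stricter filter gave 2 of 21, 1 of 9 and 1 of 15 in the last 3 of them. Doublets kept gave 3 of 27 in vascular endothelium-like and 1 of 15 in pericyte-like cells. Shares over all genes were counted at the main setting alone. Among classes of at least 50 cells in a library, the class with the highest level of each gene changed in 1 of 60 comparisons. That was for ANGPT1 in the normal library under the stricter filter (stromal fibroblast-like 418, trabecular meshwork-like 404). At the main setting this minimum left out the 33 normal lymphatic endothelium-like cells. Their TEK level of 67.2 CPM lay above the 37.4 of vascular endothelium-like cells, with overlapping intervals. Depth limits TEK most: with 38 UMIs in the normal library, differences between classes are seen only where they are several-fold, and the 33 normal lymphatic endothelium-like cells allow no call between the libraries.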
